A study of Mus musculus with 6 samples.

Results

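Bone morphogenetic protein (BMP) signalling was examined in total RNA sequencing of mouse embryo heads through 10 genes: the ligand genes Bmp2, Bmp4, Bmp5 and Bmp7, the secreted antagonist genes Grem1, Nog, Chrd and Fst, and the feedback inhibitor genes Bambi and Smad6. They were chosen by name, with earlier results of these data known. They were matched by Ensembl ID to the GENCODE annotation of mm10, and make up 10 of the 54532 genes in the count tables. The mutant embryos carried a deletion of Sf3b4 in the neural crest, and the controls were Sf3b4 wild type. Mutant and wild-type heads were both taken at embryonic day 8.5, when no malformation could yet be seen. Each library came from 3 pooled heads, with 3 libraries for the mutant and 3 for the wild type. The titles call the mutants homozygous null whereas the genotype entries name a neural crest mutant. Neither the labels nor the design text name the Cre line behind the deletion, the alleles of the controls or the litters, so the p-values measure only the spread among these pools.

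BMPs are secreted dimers of the TGF-beta superfamily that bind type I and type II serine/threonine kinase receptors and act through SMAD1, SMAD5 and SMAD9 together with SMAD4. Secreted antagonists bind the ligands outside the cell and keep them from their receptors, while inhibitory proteins such as BAMBI and SMAD6 are made in response to the signal and damp it from within the responding cell. In the early head the balance of ligand and antagonist helps to place the neural plate border, to release neural crest cells from the dorsal neural tube and to pattern the forebrain and the first pharyngeal arch. In the mouse, loss of Bmp2 impairs cranial neural crest migration, and combined loss of Nog and Chrd disrupts the forebrain and the lower jaw.

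Of this group 2 of the 4 secreted antagonist genes changed: Fst and Grem1 rose in the mutant heads, by 1.53-fold and 1.55-fold. The other antagonist genes, Nog and Chrd, did not pass the test. None of the 4 ligand genes and neither feedback gene passed the test, although all 3 mutant pools lay above all 3 wild-type pools for Bmp5, Bmp7 and Bambi. No member fell, with edgeR, DESeq2 or limma-voom, and the 4 members at an unadjusted edgeR p under 0.05 (Fst, Grem1, Bmp5 and Bmp7) were all higher. Across all tested genes, 3246 of 14008 had an unadjusted edgeR p under 0.05, counting both directions. In all 2 of 10 members were called higher and none lower, where 2.65% of the 14008 genes tested were called higher and 3.88% lower (edgeR quasi-likelihood test, two-sided, threshold of 0.05 on p after Benjamini-Hochberg adjustment over every gene tested). The median log2 fold change, mutant over wild type, was 0.22 across the 10 members and 0.00 across the genes tested. Ranges of mutant and wild-type pools did not overlap for 5 members, all 5 with the mutant higher, while 28.3% of tested genes had such a separation, 13.8% with the mutant higher and 14.4% with the mutant lower. Because the members were chosen with earlier results of these data known, these shares and medians describe the group and do not test it. All 10 members passed the filter on low counts.

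**Figure D1:**
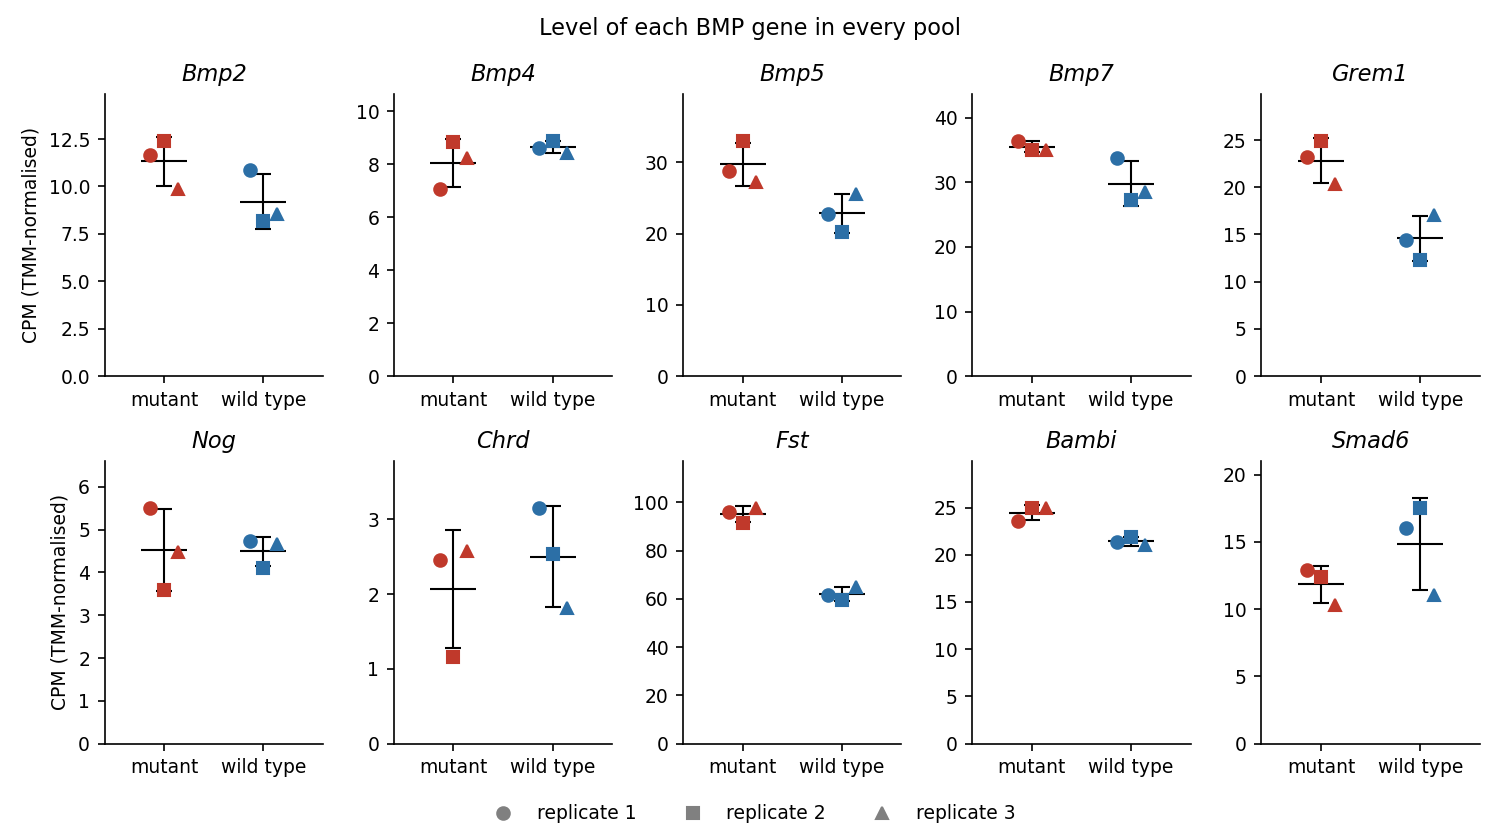
Normalised level of the 10 BMP genes in each pool, in CPM (counts of a gene per 1e+06 counts of the library, TMM-scaled), with mutant pools in red and wild-type pools in blue. Horizontal lines are means and bars are SDs over 3 pools. Fst and Grem1 show the widest gap between the genotypes, Fst with means of 95.1 CPM in mutant and 62.0 CPM in wild-type heads.

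RefSeq promoter sequences (GRCm38.p6, the same assembly as mm10) were at hand for 5 of the 10 members, and Fst was not among them. Of the 5, 3 are shown: Grem1 as an antagonist that rose, Bmp5 as the ligand closest to the threshold, and Bmp4 as a ligand with overlapping groups. Each run is the 250 bases before the annotated start, written 5′ to 3′ on the gene's own strand. Capitals mark matches, on either strand, to the GC-rich SMAD1/5 palindrome GGCGCC, the SMAD box CAGAC or the E-box CANNTG.
Grem1 (chr2:113758649-113758898, minus strand): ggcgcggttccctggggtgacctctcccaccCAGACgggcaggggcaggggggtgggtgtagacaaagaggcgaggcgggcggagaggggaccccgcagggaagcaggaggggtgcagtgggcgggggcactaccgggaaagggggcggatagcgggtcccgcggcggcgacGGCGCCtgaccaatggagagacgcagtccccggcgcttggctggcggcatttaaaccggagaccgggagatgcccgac
Bmp5 (chr9:75775115-75775364, plus strand): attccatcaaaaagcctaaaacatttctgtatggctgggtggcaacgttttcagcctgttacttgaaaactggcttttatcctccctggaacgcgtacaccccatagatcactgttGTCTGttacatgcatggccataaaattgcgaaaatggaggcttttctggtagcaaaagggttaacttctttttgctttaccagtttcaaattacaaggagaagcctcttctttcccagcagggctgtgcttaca
Bmp4 (chr14:46390670-46390919, minus strand): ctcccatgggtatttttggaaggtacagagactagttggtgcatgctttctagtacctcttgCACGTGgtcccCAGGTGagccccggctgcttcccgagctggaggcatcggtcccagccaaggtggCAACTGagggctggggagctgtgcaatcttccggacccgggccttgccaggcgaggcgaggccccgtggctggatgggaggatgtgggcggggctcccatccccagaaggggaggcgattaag
The Grem1 window held 1 palindrome, 73 to 78 bases before the start, and 1 SMAD box, and its GC content was 72.0%. The Bmp5 window held 1 SMAD box, on the opposite strand, and its GC content was 42.8%. The Bmp4 window held 3 E-boxes and neither SMAD motif, at a GC content of 63.2%. Of 32851 promoter windows of the same length, 9.59% held the palindrome, 42.2% the SMAD box and 66.2% an E-box, with a median GC content of 52.4%. The palindrome was also present once in the window of Chrd, an antagonist gene that did not pass the test, and the window of Smad6 held none of these motifs. The TATA box letters TATAAA were in none of the 5 members' windows and in 12.4% of all windows. Such matches describe the letters of the window and not the binding of a factor.

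Libraries held 6930827 to 12251910 counts, and across the transcriptome 914 of 14008 tested genes (6.52%) were called, 371 higher and 543 lower in the mutant. Once trends with exon length and GC content were taken out, the calls were 647 higher and 536 lower, so the balance between directions depended on it. Sf3b4 itself averaged 60.4 ± 4.09 CPM in mutant and 71.4 ± 6.97 CPM in wild-type heads (SD, n = 3 each) and did not pass (log2 fold change -0.24, edgeR adjusted p = 0.128). The groups overlapped, with mutant replicate 2 at 64.2 CPM and wild-type replicate 3 at 63.9 CPM, so these counts do not show the deletion. Neural crest cells are a part of the head, and a count for a whole gene cannot tell a deleted exon from an intact one. Whether either bears on the level of Sf3b4 was not tested. Mutant replicate 3 and wild-type replicate 1 had 1 read each on 4 Y-linked genes, against 344 to 664 reads in the other pools.

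Fst encodes follistatin, a secreted protein that binds activins tightly and also binds several BMPs. Fst (ENSMUSG00000021765, chromosome 13, 114452290 to 114458951, minus strand) had 96.2, 91.4 and 97.6 CPM in the mutant pools, against 61.5, 59.5 and 65.0 CPM in the wild-type pools. Every mutant pool was above every wild-type pool, and the gap between the genotypes was far wider than the spread inside either of them. Means were 95.1 ± 3.25 CPM in mutant and 62.0 ± 2.81 CPM in wild-type heads (SD, n = 3 each), from 2762 counts in the mutant and 1840 in the wild-type pools. This is a log2 fold change of 0.61 (SE 0.0772, 95% interval 0.45 to 0.78, edgeR adjusted p = 0.0002). It ranked 41 by p among the genes tested. Fst passed under all 16 alternatives, including each pool left out, with log2 fold changes of 0.58 to 0.65 and adjusted p of 2.8e-09 to 0.00261.

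Grem1 encodes gremlin, a cysteine knot protein of the DAN family that binds BMP2, BMP4 and BMP7 and is best known for its part in limb bud outgrowth. Grem1 (ENSMUSG00000074934, chromosome 2, 113746164 to 113758646, minus strand) had 23.2, 24.9 and 20.3 CPM in the mutant pools, against 14.5, 12.3 and 17.1 CPM in the wild-type pools. The groups did not overlap, but mutant replicate 3 and wild-type replicate 3 came within a few CPM of each other. Means were 22.8 ± 2.34 CPM in mutant and 14.6 ± 2.38 CPM in wild-type heads (SD, n = 3 each). The log2 fold change was 0.63 (SE 0.131, 95% interval 0.35 to 0.91, edgeR adjusted p = 0.00996). The call was lost without mutant replicate 1 (adjusted p = 0.0552) and without mutant replicate 2 (adjusted p = 0.0551), and it held in the other 14 alternatives, where the smallest adjusted p was 0.000117. The fold change itself stayed between 0.55 and 0.76 on the log2 scale throughout. Among the 4 pools that had Y-linked reads the log2 fold change was 0.59 for Fst and 0.68 for Grem1, and of the pools that lacked them the mutant one was also the higher for both genes.

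Levels of several cell type markers also differed between the genotypes, and their part in the changes of Fst and Grem1 was not tested. In bulk heads fewer cells of a type and less RNA per cell cannot be told apart. Among 10 neural crest markers 7 fell and none rose with edgeR (Sox10, Tfap2b, Erbb3, Ngfr, Sox9, Itga4 and Cdh19), 6 fell with DESeq2 and 7 with limma-voom, and their summed level was 259 to 305 CPM in mutant and 387 to 430 CPM in wild-type pools. Of 8 tested head mesoderm markers 3 rose with edgeR (Foxc1 and Cyp26c1 among them), 1 with DESeq2 and 2 with limma-voom, while Twist1 (log2 fold change -0.23, edgeR adjusted p = 0.196), Meox1 (-0.50, 0.412) and Prrx1 (-0.05, 0.895) did not pass. The sum over all 10 listed was 243 to 261 CPM in mutant and 211 to 221 CPM in wild-type pools, but without Cyp26c1, the most abundant, it was 145 to 160 CPM in mutant and 132 to 154 CPM in wild-type pools, which overlap. Surface ectoderm markers summed to 561 to 620 CPM in mutant and 447 to 497 CPM in wild-type pools. With edgeR 3 of 10 rose (Cldn6, Cldn7 and Perp), 3 with DESeq2 and 2 with limma-voom. At an unadjusted edgeR p under 0.05, 8 of the 10 were higher. Trp63 (log2 fold change -0.18, edgeR adjusted p = 0.76) and Grhl2 (0.04, 0.818) were not among these. The sum of 8 endothelial markers was 260 to 273 CPM in mutant and 214 to 236 CPM in wild-type pools. Of the 8, 1 (Kdr) rose with edgeR, 1 with DESeq2 and none with limma-voom. At an unadjusted edgeR p under 0.05, 5 of the 8 were higher and 0 lower. Markers of the notochord and node, embryonic sources of Nog and Chrd, summed to 33.5 to 41.4 CPM in mutant and 30.5 to 32.0 CPM in wild-type pools, and none of the 5 tested passed (edgeR, DESeq2 or limma-voom, with 0 at an unadjusted p under 0.05). With the same tools none of 7 dorsal midline markers passed. At an unadjusted edgeR p under 0.05, 1 of these was higher and 1 lower. They summed to 112.7 to 117 CPM in mutant pools and 121 to 122 CPM in wild-type pools. None of 8 heart markers passed with these tools, and 0 were at an unadjusted edgeR p under 0.05. The heart sum was 37.4 to 44.2 CPM in mutant pools and 22.8 to 68.7 CPM in wild-type pools, overlapping. Across all tested genes, 3246 of 14008 were at an unadjusted edgeR p under 0.05. Without the most abundant marker of each list, the neural crest and dorsal midline sums were still lower in every mutant pool than in any wild-type pool. The surface ectoderm, endothelium, and notochord and node sums were still higher, and the heart sums overlapped. No marker was at 0 in every pool.

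The remaining antagonist genes, Nog and Chrd, were read at low levels and showed no change that could be detected at this depth. Nog encodes noggin, which binds BMP2, BMP4 and BMP7 and blocks their receptor contacts, and it is an intronless gene (ENSMUSG00000048616, chromosome 11, 89300638 to 89302332, minus strand). It had 5.50, 3.58 and 4.47 CPM in the mutant pools, against 4.73, 4.10 and 4.65 CPM in the wild-type pools. The mutant pools spread to both sides of the wild-type pools. The log2 fold change was 0.01 (95% interval -0.44 to 0.46, edgeR adjusted p = 0.981), and its sign turned in 5 alternatives.

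Chrd encodes chordin, an antagonist that is cut by proteases of the BMP1 and tolloid family to free its ligand (ENSMUSG00000006958, chromosome 16, 20733127 to 20742384, plus strand). It was the least abundant member, with 30, 11 and 19 counts in the mutant pools, against 34, 18 and 21 counts in the wild-type pools. On the CPM scale this came to 2.46, 1.16 and 2.57 in the mutant pools and 3.15, 2.54 and 1.81 in the wild-type pools. Mutant replicate 2 was the lowest, and the groups overlapped. Chrd differed by -0.27 on the log2 scale with a wide 95% interval, -0.97 to 0.43 (edgeR adjusted p = 0.668), and it was 0.02 without mutant replicate 2.

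**Figure D2:**
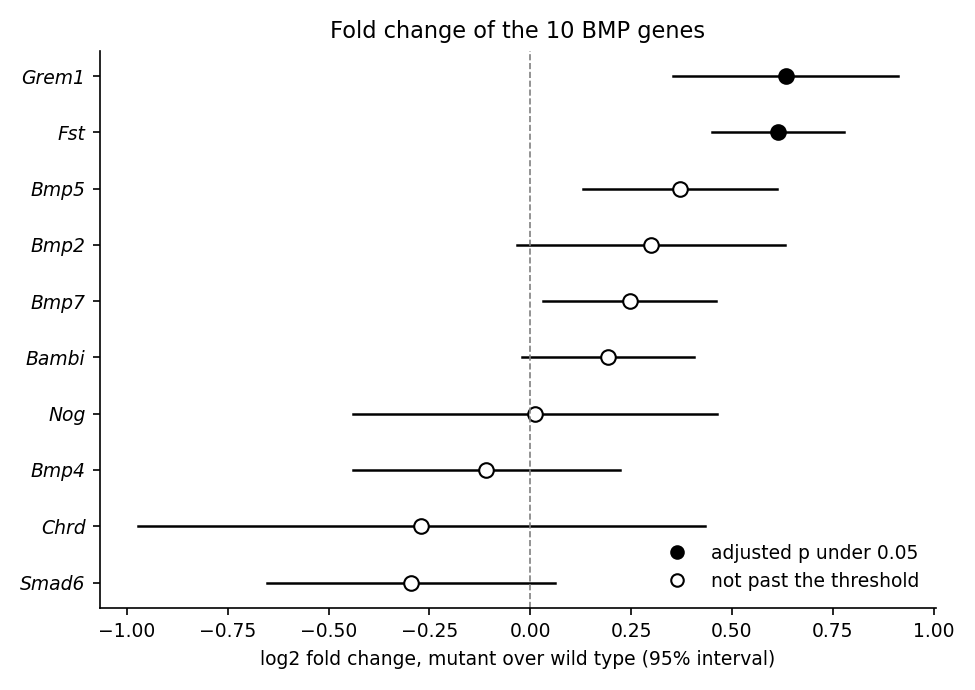
Log2 fold change of each BMP gene, mutant over wild type, with its 95% interval from the edgeR fit over 3 mutant and 3 wild-type pools. Filled points passed the threshold: Grem1 at 0.63 and Fst at 0.61 lie clear of 0, while the intervals of Nog, Bmp4, Chrd, Smad6, Bmp2 and Bambi include 0.

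Among the ligands, Bmp5 and Bmp7 belong to a subgroup whose genes cover for each other in the mouse, where loss of both is lethal in the embryo. Bmp5 (ENSMUSG00000032179, chromosome 9, 75775364 to 75900310, plus strand) had 28.8, 33.0 and 27.2 CPM in the mutant pools, against 22.7, 20.2 and 25.6 CPM in the wild-type pools. The groups did not overlap, and wild-type replicate 3 was closest to the mutants. With a log2 fold change of 0.37 (SE 0.114, 95% interval 0.13 to 0.61) it missed the threshold at an edgeR adjusted p of 0.0634. It passed in 3 alternatives, without wild-type replicate 3 (adjusted p = 0.021), with no filter on low counts (0.0333) and with a term for pools that had Y-linked reads (0.0363), and its adjusted p ran up to 0.257 in the other 13. Exons of the antisense gene Gm26903 cover 46.7% of the exonic bases of Bmp5, but Gm26903 had 1 count in mutant replicate 1 and 0 in each of the other pools.

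Bmp7 (ENSMUSG00000008999, chromosome 2, 172868012 to 172940321, minus strand) had 36.4, 35.0 and 34.9 CPM in the mutant pools, against 33.7, 27.3 and 28.4 CPM in the wild-type pools. The mutant pools were close together and all above the wild-type pools, of which replicate 1 was the nearest. For Bmp7 the log2 fold change was 0.25 (SE 0.101, 95% interval 0.03 to 0.46, edgeR adjusted p = 0.157), and Bmp7 passed in 1 of 16 alternatives, without wild-type replicate 1 (adjusted p = 0.0413).

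Bmp2 and Bmp4 encode a closely related pair of ligands made in the surface ectoderm and dorsal neural tube, among other sites. Bmp2 (ENSMUSG00000027358, chromosome 2, 133552159 to 133562885, plus strand) had 11.7, 12.4 and 9.89 CPM in the mutant pools, against 10.8, 8.19 and 8.53 CPM in the wild-type pools. Mutant replicate 3 fell within the wild-type range. Its log2 fold change of 0.30 (95% interval -0.03 to 0.63, edgeR adjusted p = 0.268) did not pass in the main test or in any of 16 alternatives. Bmp4 (ENSMUSG00000021835, chromosome 14, 46383520 to 46390669, minus strand) had 7.06, 8.84 and 8.26 CPM in the mutant pools, against 8.62, 8.90 and 8.44 CPM in the wild-type pools. The wild-type pools were nearly level, and mutant replicate 2 lay among them. Bmp4 had a log2 fold change of -0.11 (95% interval -0.44 to 0.22, edgeR adjusted p = 0.719), and no alternative called it.

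Smad6 encodes an inhibitory SMAD that interferes with the SMADs of the BMP branch, and its transcription is a common readout of BMP signalling. Smad6 (ENSMUSG00000036867, chromosome 9, 63953076 to 64022059, minus strand) had 12.9, 12.4 and 10.3 CPM in the mutant pools, against 16.0, 17.5 and 11.0 CPM in the wild-type pools. Wild-type replicate 3 sat apart from the other wild-type pools and inside the mutant range. The log2 fold change was -0.30 (SE 0.168, 95% interval -0.65 to 0.06, edgeR adjusted p = 0.309), and no change was called in 15 of 16 alternatives. It was -0.48 and passed without wild-type replicate 3 (adjusted p = 0.0402), and it was -0.17 without wild-type replicate 2 (0.654) and -0.14 among the 4 pools that had Y-linked reads (0.756).

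Bambi encodes a transmembrane pseudoreceptor that resembles a type I receptor but lacks the kinase domain (ENSMUSG00000024232, chromosome 18, 3507923 to 3516404, plus strand). It had 23.6, 24.9 and 24.9 CPM in the mutant pools, against 21.3, 21.9 and 21.0 CPM in the wild-type pools. Both groups were tight and did not overlap. The difference was small, 0.19 on the log2 scale (SE 0.1, 95% interval -0.02 to 0.40), and it did not pass (edgeR adjusted p = 0.263) in the main test or in any of 16 alternatives.

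**Figure D3:**
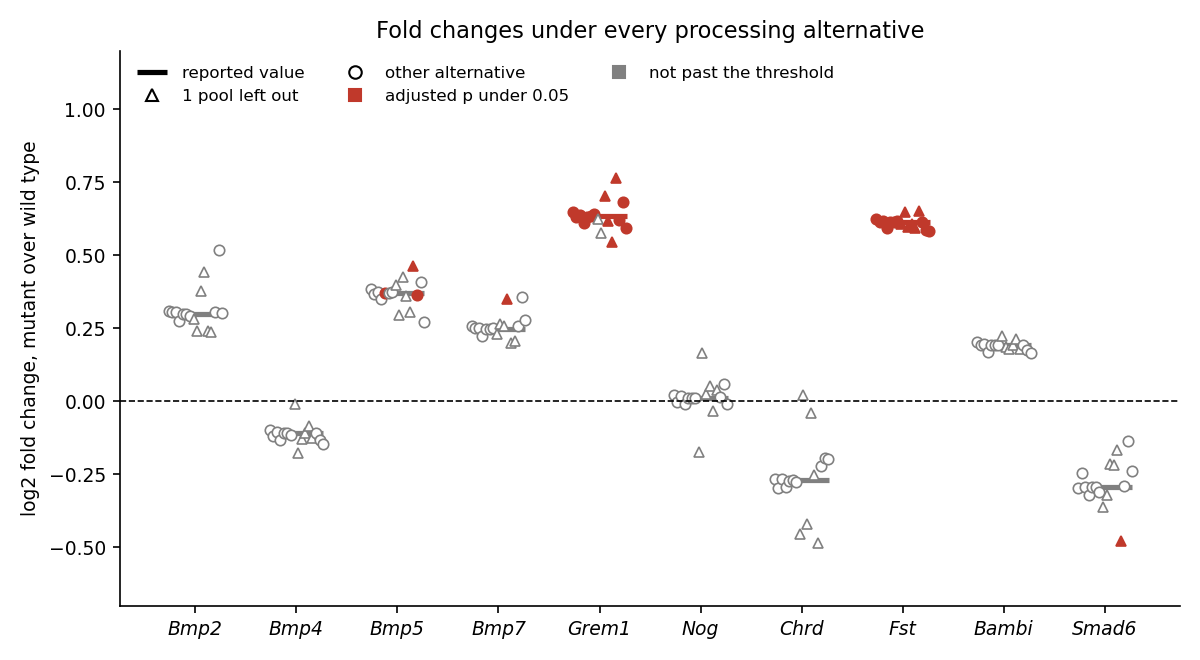
Log2 fold change of each BMP gene, mutant over wild type, as reported (bar) and under 16 processing alternatives (triangles with 1 pool left out, circles otherwise), in red where the adjusted p was under 0.05. All points of Fst and 14 of 16 of Grem1 are red, and Nog and Chrd have points on both sides of 0.

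Levels of different genes were compared after division by exon length, in CPM per kilobase. In mutant heads Fst stood highest at 20.7 ± 0.708 CPM per kb, followed by Bmp7 (8.83 ± 0.21), Bmp5 (7.38 ± 0.747), Grem1 (5.50 ± 0.564) and Bambi (4.82 ± 0.156). Next came Smad6 (3.70 ± 0.431), Bmp4 (3.58 ± 0.404), Bmp2 (3.18 ± 0.365) and Nog (2.66 ± 0.568), and Chrd was lowest at 0.33 ± 0.126 CPM per kb (SD, n = 3 pools each). The ranges of neighbours in this order overlapped for Grem1 and Bambi and along the run of Smad6, Bmp4, Bmp2 and Nog. In wild-type heads Fst (13.5 ± 0.611 CPM per kb), Bmp7 (7.42 ± 0.858) and Bmp5 (5.67 ± 0.669) led as well and Chrd was again lowest (0.40 ± 0.107). Between them came Smad6 (4.64 ± 1.06), Bambi (4.22 ± 0.0885), Bmp4 (3.85 ± 0.103), Grem1 (3.52 ± 0.575), Nog (2.65 ± 0.203) and Bmp2 (2.58 ± 0.406). Here ranges overlapped along the run of Bmp5, Smad6 and Bambi, between Bmp4 and Grem1 and between Nog and Bmp2. Grem1 was rank 4 of the 10 in mutant heads and rank 7 in wild-type heads.

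Summed over the 4 antagonist genes, the level was 30.2, 28.2 and 29.2 CPM per kb in the mutant pools, against 20.2, 18.7 and 21.3 CPM per kb in the wild-type pools. The 4 ligand genes summed to 22.6, 24.4 and 21.9 CPM per kb in the mutant pools, against 20.9, 18.1 and 19.6 CPM per kb in the wild-type pools. Both sums were higher in every mutant pool than in any wild-type pool, the antagonist sum by the wider margin. The ratio of this ligand sum to this antagonist sum was 0.787 ± 0.0651 in mutant and 0.973 ± 0.0593 in wild-type heads (SD, n = 3 each), without overlap. Fst made up 70.9% ± 1.73 of the antagonist sum in mutant and 67.3% ± 1.55 in wild-type heads. Without Fst, whose product binds activins more tightly than BMPs, the ratio was 2.71 ± 0.243 in mutant and 2.98 ± 0.211 in wild-type heads, and the groups overlapped. Within the ligand sum Bmp4 made up 15.6% ± 1.53 in mutant and 19.8% ± 1.87 in wild-type heads, also without overlap. The level of Bmp4 itself overlapped between the genotypes (log2 fold change -0.11, edgeR adjusted p = 0.719), while the ligand sum was higher in the mutant pools. Bmp7 was the largest part in both, at 38.5% ± 2.35 in mutant and 37.9% ± 2.03 in wild-type heads. These sums and ratios are descriptions of the members and were not tested. They leave out other secreted regulators, such as Twsg1 (24.5 CPM per kb in mutant and 21.0 in wild-type heads). Other ligands, such as Gdf10 (3.25 CPM per kb in mutant and 2.17 in wild-type heads), are left out as well.

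**Figure D4:**
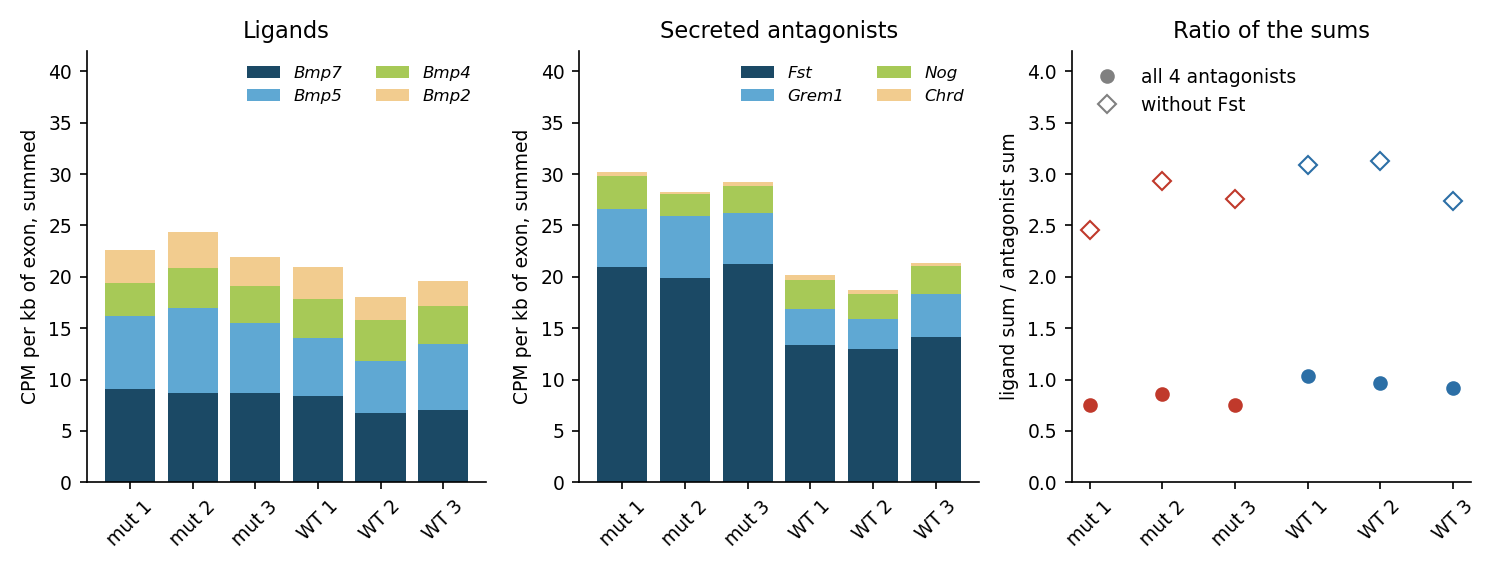
Left and middle, levels of the 4 ligand and 4 secreted antagonist genes in CPM per kilobase of exon, stacked for each mutant (mut) and wild-type (WT) pool. Right, the ratio of the ligand sum to the antagonist sum, with mutant pools in red and wild-type pools in blue. With all 4 antagonists the ratio is 0.75 to 0.863 in mutant and 0.919 to 1.04 in wild-type pools, and without Fst (open diamonds) the groups overlap.

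In the rest of the BMP pathway few genes changed. Of 70 further genes listed by role, 56 could be tested, and 1 rose and 2 fell, or 5.36% called, where the background is 6.52%. Their median log2 fold change was 0.04. Receptors and co-receptors had no call among 11 tested genes at log2 fold changes of -0.31 to 0.20, with 3 at an unadjusted p under 0.05 and none called by DESeq2 or limma-voom. Those nearest to the threshold were the co-receptor gene Rgmb (-0.31, edgeR adjusted p = 0.0896) and the type I receptor gene Bmpr1a (0.20, edgeR adjusted p = 0.173). Other secreted regulators had no call among 13 tested, 4 of them at an unadjusted p under 0.05 and none called by DESeq2 or limma-voom. They were led by the BMP binding proteins Chrdl1 (0.42, edgeR adjusted p = 0.136) and Twsg1 (0.22, edgeR adjusted p = 0.138). For both lists the background at an unadjusted edgeR p under 0.05 is 3246 of 14008 tested genes.

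Gdf10, also known as Bmp3b, was the ligand gene that rose among 5 other ligands tested. It had 16.4, 18.2 and 16.3 CPM in the mutant pools, against 12.6, 10.9 and 10.4 CPM in the wild-type pools. All mutant pools were higher, by 0.58 on the log2 scale (SE 0.13, adjusted p = 0.0145 by edgeR). Leaving out mutant replicate 1 (adjusted p = 0.0597), mutant replicate 2 (0.0794) or wild-type replicate 2 (0.054) ended the call, and the smallest adjusted p over the 16 alternatives was 0.00304.

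Zeb2, which encodes a repressor that binds SMADs and is expressed in neural crest, fell among 13 SMADs and regulators. It had 97.1, 101 and 85.2 CPM in the mutant pools, against 113 to 127 CPM in the wild-type pools, which is -0.33 as a log2 fold change (SE 0.0817, adjusted p = 0.0247 by edgeR). The change of Zeb2 was smaller after the length and GC correction, at -0.18 (adjusted p = 0.101). Its call was also lost among the 4 pools that had Y-linked reads (0.0565), when wild-type replicate 2 was left out (0.111) and when any 1 mutant pool was (0.0519 to 0.121), while the smallest adjusted p over the alternatives was 0.00381.

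Among 14 BMP target genes Tbx3, a T-box repressor gene, fell and the rest did not pass. Tbx3 had 7.06, 8.52 and 7.85 CPM in the mutant pools, against 13.0, 13.0 and 9.99 CPM in the wild-type pools. As a log2 fold change this was -0.61 (SE 0.159, adjusted p = 0.0316 by edgeR). The call was lost in 7 of 16 alternatives, namely DESeq2 (adjusted p = 0.0714), the 4 pools that had Y-linked reads (0.152), and each pool left out except wild-type replicate 3 (0.0744 to 0.18), and the smallest adjusted p was 0.00981. The classical targets Id1 (-0.12, edgeR adjusted p = 0.409) and Id3 (0.08, edgeR adjusted p = 0.528), inhibitors of basic helix-loop-helix factors, did not pass. The log2 fold change of Id1 had a 95% interval of -0.29 to 0.05 and that of Id3 one of -0.07 to 0.24. Id1 and Id3 are named here after their values were seen.

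**Figure D5:**
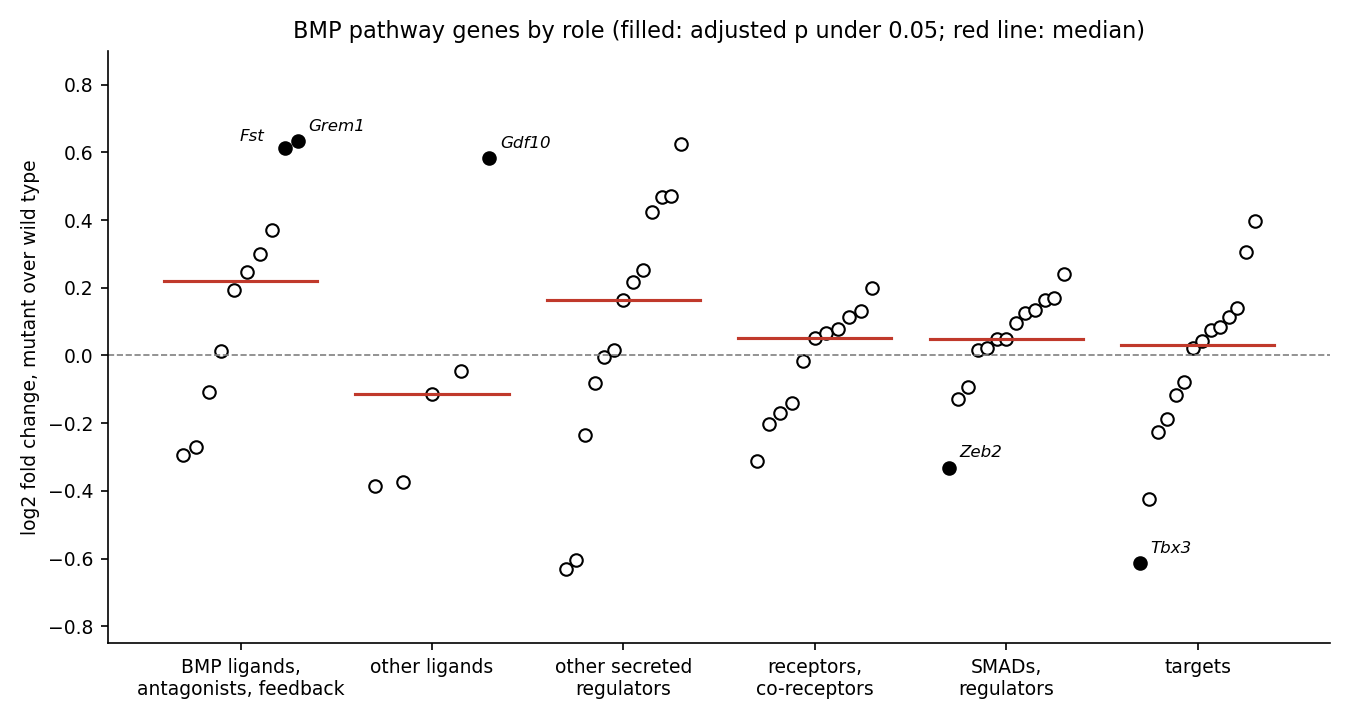
Log2 fold change, mutant over wild type, of the 10 BMP members and of 56 other tested BMP pathway genes grouped by role. Filled points passed the threshold and red lines are medians: 0.22 for the members, 0.16 for other secreted regulators, 0.05 for receptors, 0.05 for SMADs and regulators, 0.03 for targets and -0.12 for other ligands.

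Profiles over the 6 pools most like those of the called members were found among 10744 genes with a mean of at least 5 CPM, by the root mean square difference of centred log2 CPM. For Fst the closest included Rps3a1 (0.0522) and Mt2 (0.0599). For Grem1 the 3 closest were Zfp563 (0.0661), Rps27l (0.0796) and Mipol1 (0.0855). By its definition this measure picks genes with a like gap between the genotypes. Shared regulation was not tested.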

How the data were processed

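Total RNA was prepared with a Qiagen RNeasy micro kit and an Illumina TruSeq Standard Total RNA kit, per the labels' protocols. The authors deposited raw whole-number counts of reads per gene, 1 table per pool, with mm10 as the build according to the submitters' processing notes. How reads were aligned, counted and assigned by strand is not stated in the labels or tables. Of 54532 Ensembl IDs 54495 matched GENCODE M21 (GRCm38).

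Counts were filtered with filterByExpr, scaled by TMM and tested with glmQLFit (robust) and glmQLFTest of edgeR 4.0.16 (R 4.3.3). SEs are the log2 fold change divided by the square root of F. Alternatives were DESeq2 1.42.0, limma-voom (limma 3.58.1), RLE factors, library size alone, no filter on low counts, no robust estimation, a replicate block, each pool left out, 2 treatments of Y-linked reads (Ddx3y, Eif2s3y, Kdm5d, Uty) and a spline correction for exon length and GC content. On simulated counts 13813 genes were tested and the fit called 52.2% of those set to change 1.5-fold and 91% of those set to change 2-fold, with 13 false among 174 calls. No 2 pools of a genotype agreed within sampling noise (chi-square over degrees of freedom, 2.81 to 9.19).

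The members and lists were chosen with earlier results of these data known. Named genes are the members, Sf3b4, pathway genes that passed, the 2 smallest p values of a list without calls, and for called members the 3 closest profiles; a few of the genes so chosen are not reported here by name but stay in the counts. Id1, Id3, the markers named singly and the untested pathway genes were named after their values were seen. The marker lists are neural crest, surface ectoderm, head mesoderm, notochord and node, heart, endothelium and dorsal midline.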

Additional observations from a re-analysis of the deposited data

How the results depend on the processing

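Of the 10 members 2 rose and none fell under DESeq2, limma-voom, RLE factors, library size alone, no robust estimation, the 4 pools that had Y-linked reads and the length and GC correction. With no filter on low counts, and with a covariate for Y-linked reads, 3 rose and none fell. With 1 pool left out, 1 to 3 members rose and 0 to 1 fell. Nog changed sign with limma-voom (-0.0024), library size alone (-0.009) and the length and GC correction (-0.0101) and ranged from -0.18 to 0.16 with 1 pool left out, and Chrd from -0.48 to 0.0199; the cause was not tested.

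Over all genes tested, 1616 changed with a covariate for Y-linked reads (739 higher, 877 lower) and 535 among the 4 pools that had Y-linked reads (286 lower). With no filter 624 were higher, and 647 were higher after the length and GC correction. With 1 pool left out 230 to 1810 changed, 107 to 890 higher and 123 to 920 lower. Other BMP pathway genes that rose numbered 2 with DESeq2, RLE factors and no filter, and 3 with the covariate and the length and GC correction. Those that fell numbered 1 with DESeq2 and the length and GC correction, 3 with the covariate and no filter, and 0 among the 4 pools that had such reads. With 1 pool left out 0 to 5 rose and 0 to 2 fell. The causes were not tested.

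The replicate numbers showed no sign of pairing the pools. Deviations of same-numbered pools correlated at -0.161, 0.0515 and -0.0598, and no pool of either genotype correlated best with its own number. Deviations from a mean of 3 pools are tied to each other, so these values cannot exclude a pairing. With the replicate number as a block 694 genes changed and 2 members rose. A minimum of 1 CPM in 3 pools kept the same 14008 genes and so was no alternative. Counts limit Nog and Chrd most, with 29 to 67 and 11 to 34 counts per pool.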

Other observations

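The 14 BMP pathway genes that could not be tested were close to silent in these heads, with 0 to 14 counts in any pool and means under 1 CPM. They include the ligand genes Bmp10, Gdf2, Gdf3 and Gdf5, which act in heart, vessel, early embryo and joint, and the antagonist genes Cer1 and Chrdl2. Bmp8a had 0 counts in each mutant pool, which allows up to 0.102 CPM over the mutant pools together (3 counts, counting error only), against 3, 1 and 1 counts in the wild-type pools.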
